A study of Rattus norvegicus with 12 samples.

Results

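The small heat shock proteins of heart muscle were followed as 7 genes, Hspb1, Hspb2, Hspb3, Hspb6, Hspb7, Hspb8 and Cryab, in female Sprague-Dawley rats (Charles River) aged 16 months, from left ventricular RNA. Every probe set whose only annotated gene symbol was one of these was taken, which gave 9 of the 31042 probe sets on Affymetrix rat arrays, with 2 each for Hspb7 and Hspb8. Each such set holds several short probes against the same transcript, and its deposited value is a log2 signal. The 2 sets of a gene are told apart below as the brighter and the dimmer. All 9 passed the filter on dim probe sets that left 18626 in the tests. EX rats could exercise voluntarily all their lives, PA rats were active for 1 h in a large box 2 times weekly, and SED rats knew only the standard cage, with 4 arrays in each case. According to the series' design, 12 animals made up a group and RNA of 4 was pooled per array, which does not account for a further array, so arrays may share animals. The p-values therefore measure only the spread between these pooled arrays, and their number limits the precision.

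Small heat shock proteins are chaperones that work without ATP. They share an alpha-crystallin domain, assemble into oligomers and hold partly unfolded proteins in a soluble state until ATP-driven chaperones of the Hsp70 family refold them or they are degraded. Heart muscle is rich in them, and there they bind desmin, titin, actin and filamin C at the Z-disc under mechanical and oxidative stress. Some members are induced by heat through the transcription factor Hsf1, while others are kept at a steady level as part of the muscle program.

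The tissue carried the markers of heart muscle on every array. All 12 cardiomyocyte markers were in the tested range, with means from 11.66 to 13.15, and their list mean moved by little between arrays, from -0.02 to 0.01 in EX, from -0.02 to 0.03 in PA and from -0.02 to 0.02 in SED around the mean of all arrays. Of 8 skeletal muscle markers on the array, 6 lay below the filter, among them Myh2, Myh4, Actn3 and Atp2a1. The remaining members were Tnnt3, with group means of 5.26 to 5.47, and Myh1, whose means of 12.72 to 12.77 lay in the range of the cardiomyocyte markers. In bulk tissue, fewer cells of a type and less RNA per cell cannot be told apart. Array SED 1 stood apart from the rest. Its mean correlation with the other arrays was 0.964, where the others had 0.987 to 0.989, and the 3′ signal of Gapdh, an array control, exceeded its 5′ signal by 1.56, where the others had 0.96 to 1.35. For actin, the second such control, the gap was 1.70 on SED 1 and 1.37 to 1.67 on the others, so SED 1 was only just outside them. A larger gap is a common sign of less intact RNA.

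Hspb1, the Hsp27 homologue that guards actin filaments and is phosphorylated by the kinase Mapkapk2, read 9.60, 9.29, 9.67 and 9.47 in EX, 9.98, 9.55, 9.61 and 9.79 in PA, and 9.41, 9.77, 9.51 and 9.87 in SED (log2, replicates 1 to 4). The groups overlapped, and the SED arrays alone covered most of the range of EX and PA. The EX minus SED difference was -0.13 (95% interval -0.43 to 0.17), PA minus SED was 0.09 (-0.21 to 0.39) and EX minus PA was -0.23 (-0.52 to 0.07). None passed limma's test adjusted over all tested probe sets, with adjusted p of 0.667, 0.765 and 1 in that order of comparisons.

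Hspb6, or Hsp20, which is phosphorylated by protein kinases A and G in cardiac and smooth muscle, gave 11.81, 11.82, 11.95 and 11.91 in EX, 12.07, 11.88, 11.89 and 12.09 in PA, and 11.78, 11.92, 11.83 and 12.09 in SED. PA 1, PA 4 and SED 4 were the 3 highest arrays for Hspb6, and the same 3 arrays were the highest for Hspb1 (9.98, 9.79 and 9.87). Hspb6 differed by -0.03 (95% interval -0.24 to 0.18) in EX against SED by 0.08 (-0.13 to 0.29) in PA against SED and by -0.11 (-0.32 to 0.10) in EX against PA.

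Hspb8, or Hsp22, the partner of the co-chaperone Bag3 in the autophagic removal of damaged Z-disc proteins, was read by 2 probe sets that did not follow each other. The brighter gave 11.43, 11.38, 11.67 and 11.51 in EX, 11.62, 11.51, 11.49 and 11.73 in PA, and 11.20, 11.51, 11.51 and 11.62 in SED. The dimmer gave 7.99, 8.09, 8.0 and 7.78 in EX, 7.87, 7.86, 8.06 and 7.84 in PA, and 6.81, 7.83, 7.95 and 7.63 in SED. Both were lowest on SED 1, and in the dimmer set SED 1 lay far below every other array. The correlation between the 2 probe sets over the 12 arrays was 0.53, and it was -0.46 without SED 1.

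The largest difference among the members in EX against SED and in PA against SED came from that dimmer Hspb8 probe set. It averaged 7.97 ± 0.13 in EX, 7.91 ± 0.10 in PA and 7.56 ± 0.51 in SED (SD, n = 4 each). The EX minus SED difference was 0.41 ± 0.20 (SE; limma adjusted p = 0.362), and it was 0.16 without SED 1. PA minus SED was 0.35 ± 0.20 (limma adjusted p = 0.421), and 0.10 without SED 1. For the brighter probe set the differences were 0.04 (95% interval -0.20 to 0.28) and 0.13 (-0.11 to 0.37), and without SED 1 they were -0.05 and 0.04.

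Hspb7, a cardiovascular small heat shock protein that binds filamin C, read 11.85, 11.69, 11.42 and 11.42 in EX, 11.19, 11.65, 11.74 and 11.16 in PA, and 12.36, 11.54, 11.73 and 11.34 in SED by its brighter probe set. SED 1 was the highest array and PA 4 the lowest, with a range of 1.20 over the 12 arrays and of 0.69 without SED 1. Its SD over the arrays, 0.328, was larger than that of 498 of the 500 probe sets nearest to it in mean signal, whose median SD was 0.096. The EX minus SED difference was -0.15 (95% interval -0.62 to 0.32), with 0.06 without SED 1, and PA minus SED was -0.31 (-0.78 to 0.16), with -0.10 without SED 1. The dimmer probe set gave 7.97, 8.20, 7.87 and 7.70 in EX, 7.94, 7.97, 8.19 and 7.63 in PA, and 7.63, 7.99, 8.36 and 7.92 in SED. Its EX minus SED difference was -0.04 (95% interval -0.41 to 0.33) and PA minus SED was -0.04 (-0.41 to 0.32). On SED 1 the 2 Hspb7 probe sets went opposite ways, the brighter to its highest value and the dimmer to its lowest, which PA 4 shared. Their correlation was 0.10 over the 12 arrays and 0.70 without SED 1.

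Cryab, or alpha B-crystallin, the chaperone of desmin and titin, gave 12.73, 12.80, 12.79 and 12.79 in EX, 12.81, 12.79, 12.83 and 12.79 in PA, and 12.79, 12.76, 12.78 and 12.87 in SED. It was the steadiest of the 9 probe sets, with an SD of 0.034 over the 12 arrays. Of the 500 probe sets nearest to it in mean signal, 22 had a smaller SD. The intervals of its differences were the narrowest of the members, -0.18 to 0.13 in EX against SED, -0.15 to 0.16 in PA against SED and -0.18 to 0.13 in EX against PA. Cryab stayed at this level on SED 1 as well, the array on which the brighter Hspb7 probe set and both Hspb8 probe sets departed most from their means.

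Hspb2, which binds the myotonic dystrophy protein kinase and forms a complex with Hspb3 in muscle, gave 10.11, 10.20, 9.99 and 10 in EX, 10.04, 10.18, 10.02 and 9.81 in PA, and 10.26, 10.07, 10.21 and 9.89 in SED. Its highest array was SED 1 and its lowest PA 4, as for the brighter Hspb7 probe set. Hspb2 differed by -0.03 (95% interval -0.27 to 0.21) in EX against SED, by -0.10 (-0.34 to 0.15) in PA against SED and by 0.06 (-0.18 to 0.30) in EX against PA. Hspb2 is the genomic neighbour of Cryab. Their annotated spans in RefSeq (GRCr8) overlap. The correlation of Hspb2 with Cryab over the 12 arrays was -0.38, and -0.41 without SED 1.

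Hspb3, the binding partner of Hspb2, gave 8.73, 8.62, 8.74 and 9.08 in EX, 9.16, 9.12, 9.08 and 8.95 in PA, and 8.90, 9.06, 8.62 and 9.19 in SED. EX lay below PA on 3 of its 4 arrays, and EX 4 fell within the PA values. The EX minus PA difference was -0.29 ± 0.13 (SE; 95% interval -0.58 to 0.01), with an unadjusted limma p of 0.0566 and an adjusted p of 1. Without EX 4 it was -0.38, with an adjusted limma p of 1, and without EX 2 it was -0.23. These were the ends of its range with each array left out in turn. Against SED, Hspb3 differed by -0.15 (95% interval -0.44 to 0.14) in EX and by 0.14 (-0.16 to 0.43) in PA. It averaged 8.79 ± 0.20 in EX, 9.08 ± 0.09 in PA and 8.94 ± 0.25 in SED (SD, n = 4 each).

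**Figure D1:**
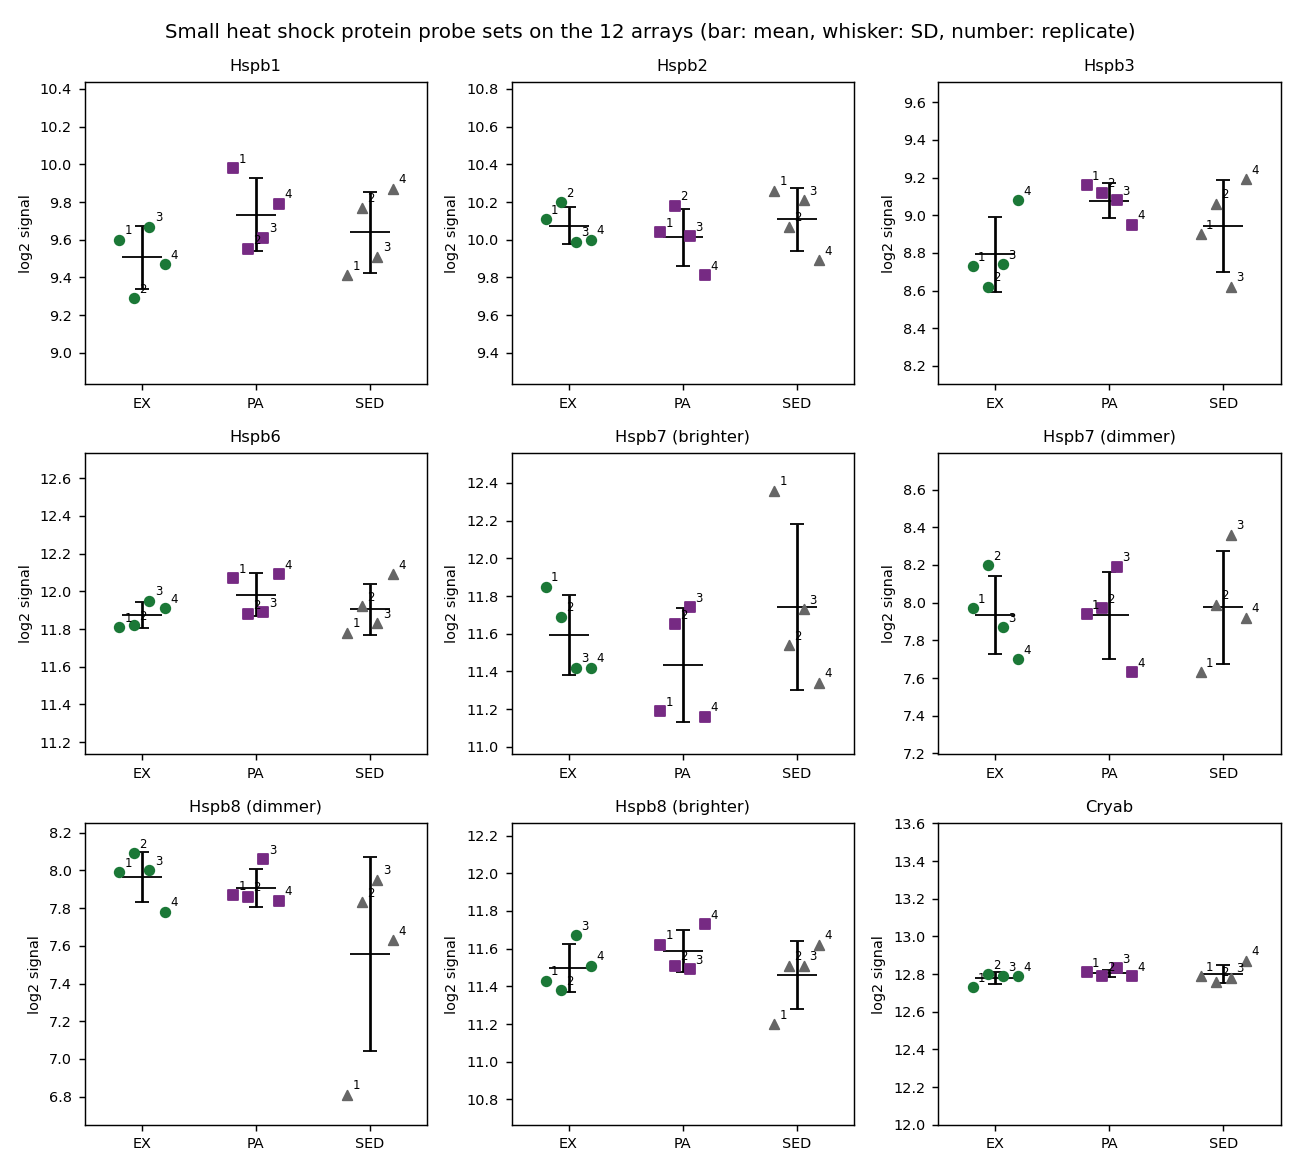
Log2 signal of the 9 probe sets of the 7 genes on the EX, PA and SED arrays. Points are arrays with their replicate number, bars are group means and whiskers are SD, and every panel spans the same log2 range. The groups overlap in every panel, Cryab is nearly flat, and SED 1 lies apart for the brighter Hspb7 probe set (12.36) and the dimmer Hspb8 probe set (6.81).

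Across the comparisons, limma called 0 of the 9 probe sets in EX against SED, in PA against SED and in EX against PA, as it did for 0% of the 18626 tested. At an unadjusted p under 0.05 it also placed 0 of 9 in each, where the share over all tested probe sets was 15.6% in EX against SED, 15.2% in PA against SED and 2.87% in EX against PA. The groups overlapped for all 9 probe sets in all 3 comparisons, where 7.89%, 8.39% and 2.78% of all tested probe sets had no overlap. In EX against SED 2 of the 9 had a higher mean in EX and 7 a lower one, with a median of -0.03, where 59.8% of all tested were higher in EX, 39.9% were lower and the median was 0.055. Without SED 1, 3 were higher and 6 lower, with a median of -0.05. With each gene taken by its brightest tested probe set, 57% of all genes were higher with SED 1 and 53.5% without it. Their medians were 0.03 and 0.01. In PA against SED 6 of the 9 were higher in PA and 3 lower, with a median of 0.08, where 61% of all tested were higher, 38.7% were lower and the median was 0.0625. Without SED 1, 6 were again higher and 3 lower, but with a median of 0.02. Counted by gene in the same way, 59.9% were higher with SED 1 and 59.1% without it. The gene medians were 0.05 and 0.03. In EX against PA 4 were higher and 5 lower in EX, with a median of -0.03, where 47.1% of all tested were higher and 52.5% were lower.

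The intervals give a range of sizes for each difference, taken for each probe set singly and not adjusted for their number. They cover only the spread between these pooled arrays, which may share animals, so they may be too narrow. Over the 9 probe sets, the 95% intervals reached from -0.62 to 0.85 in EX against SED, or 0.652-fold to 1.81-fold. They reached from -0.78 to 0.80 in PA against SED, or 0.583-fold to 1.74-fold, and from -0.58 to 0.63 in EX against PA, or 0.669-fold to 1.55-fold. The outer ends came from Hspb7 and Hspb8 in the comparisons with SED.

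**Figure D2:**
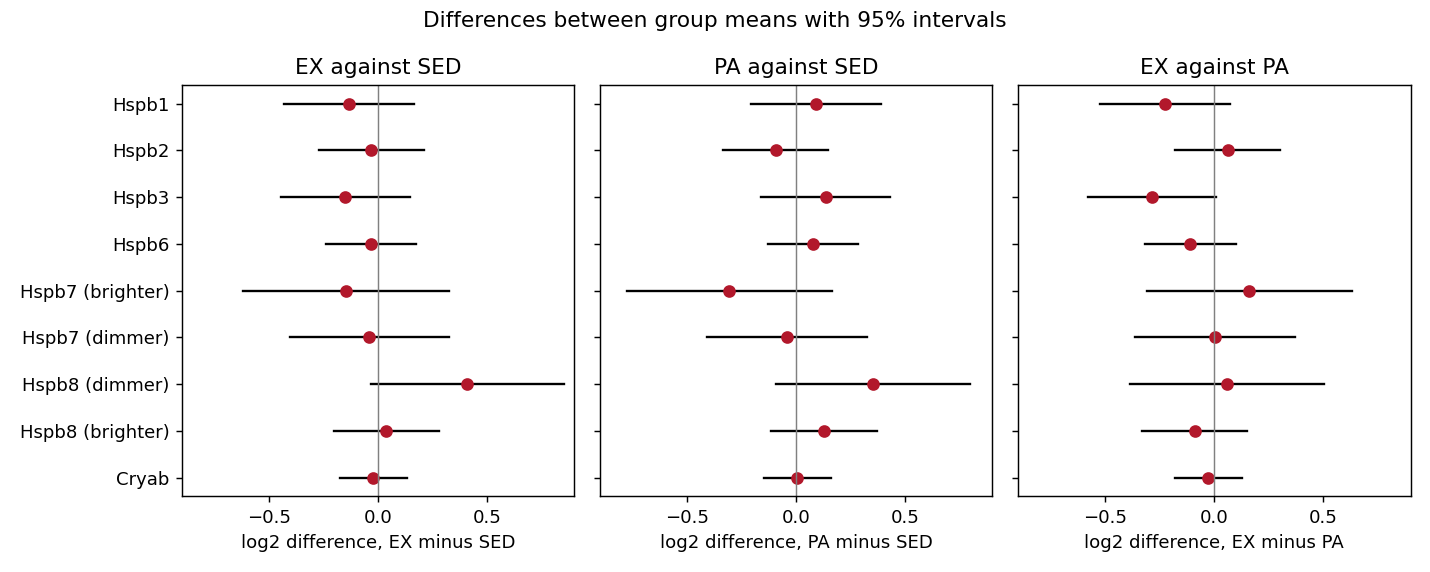
Log2 difference of group means for each probe set in the 3 comparisons, with 95% intervals from limma as horizontal lines and 0 as the vertical line. Every interval includes 0. The interval of Cryab is the narrowest, and those of Hspb7 (brighter) and Hspb8 (dimmer) are the widest.

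Within the groups the members varied from array to array, and several of them did so together. Hspb1, Hspb6 and the brighter Hspb8 probe set were high on the same arrays, and Hspb2 and the brighter Hspb7 probe set were low on them. On PA 4, for example, Hspb6 stood 0.17 and the brighter Hspb8 probe set 0.21 above their means over the 12 arrays, while the brighter Hspb7 set stood at -0.43 and Hspb2 at -0.26. On SED 1 the signs were turned, with Hspb6 at -0.14, Hspb8 at -0.32, Hspb7 at 0.77 and Hspb2 at 0.20.

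**Figure D3:**
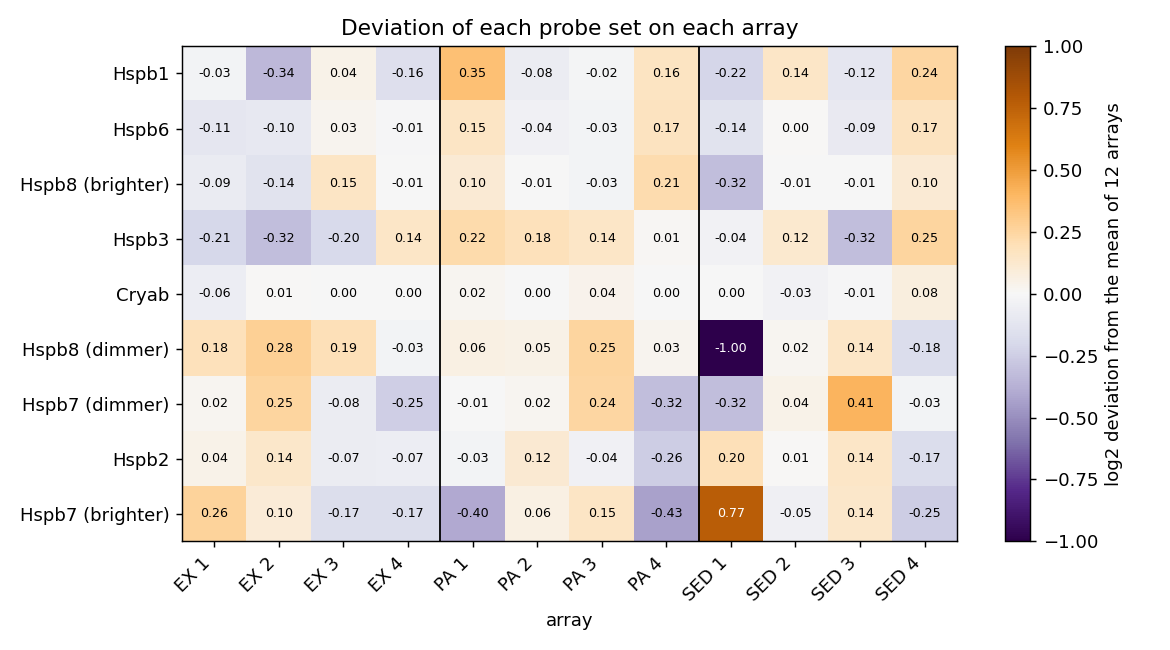
Log2 deviation of each probe set (rows) on each array (columns) from its mean over the 12 arrays, with the group borders as black lines and the value printed in each cell. Hspb1, Hspb6 and Hspb8 (brighter) are above their means on PA 1, PA 4 and SED 4, where Hspb2 and Hspb7 (brighter) are below theirs.

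Of the 36 pairs of probe sets, 8 had a correlation over the 12 arrays with a permutation p under 0.05 after Benjamini-Hochberg adjustment over the pairs (two-sided, 100000 permutations), 4 of them positive and 4 negative. Hspb6 and Hspb7 (brighter) ran opposite to each other, with Pearson r = -0.87 (p = 1e-05, the smallest these permutations can give, adjusted 0.00036) and Spearman rho = -0.93 (p = 3e-05, adjusted 0.00108). Without PA 4 and SED 4, the arrays farthest from the median of Hspb6, r was -0.86, without SED 1 it was -0.93, and with group means removed it was -0.90. Hspb7 and Hspb8 (brighter) also ran opposite, with r = -0.92 (permutation p = 9e-05, adjusted 0.00162) and rho = -0.89 (permutation p = 0.0002, adjusted 0.0024). That r was -0.78 without PA 4 and SED 1 and -0.91 with group means removed.

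Among the members that went together, Hspb6 and Hspb8 (brighter) had r = 0.84 (permutation p = 0.00029, adjusted 0.00261) and rho = 0.91 (permutation p = 8e-05, adjusted 0.00144), with r = 0.79 without PA 4 and SED 4. Hspb1 and Hspb6 had r = 0.85 (permutation p = 0.00045, adjusted 0.00324) and rho = 0.84 (permutation p = 0.00112, adjusted 0.00806), with r = 0.84 without EX 2 and PA 1 and 0.83 with group means removed. Hspb2 ran with Hspb7 (brighter), at r = 0.79 (permutation p = 0.00225, adjusted 0.0116) and rho = 0.77 (permutation p = 0.00475, adjusted 0.0244), and r was 0.64 without PA 4 and SED 1. Hspb2 ran against Hspb6, at r = -0.86 (permutation p = 0.00026, adjusted 0.00261) and rho = -0.87 (permutation p = 0.00049, adjusted 0.00441), and r was -0.77 without PA 4 and SED 1. The remaining pairs were Hspb2 with the brighter Hspb8 set, at r = -0.82 (permutation p = 0.00118, adjusted 0.00708), rho = -0.77 (permutation p = 0.00417, adjusted 0.0244) and r = -0.66 without PA 4 and SED 1, and Hspb1 with the same Hspb8 set, at r = 0.72 (permutation p = 0.00771, adjusted 0.0347), rho = 0.76 (permutation p = 0.00547, adjusted 0.0246) and r = 0.72 without EX 2 and PA 1. Hspb1 missed the threshold with the brighter Hspb7 set (r = -0.68, permutation p = 0.0132, adjusted 0.0528) and with Hspb2 (r = -0.67, permutation p = 0.0178, adjusted 0.064). No pair that includes Cryab, Hspb3 or the dimmer probe sets of Hspb7 and Hspb8 passed.

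**Figure D4:**
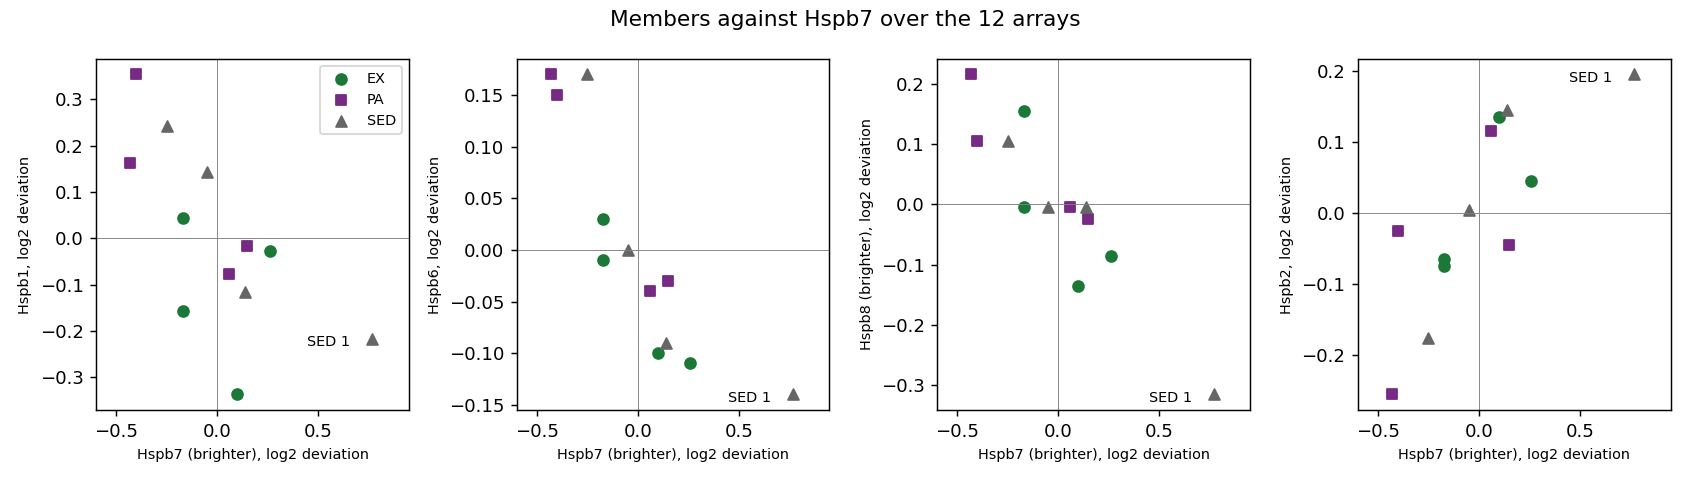
Log2 deviations of Hspb1, Hspb6, Hspb8 (brighter) and Hspb2 from their means over the 12 arrays, plotted against that of Hspb7 (brighter), with a point for each EX, PA and SED array. Hspb6 and Hspb8 are lower where Hspb7 is higher and Hspb2 is higher there, Hspb1 is more scattered (r = -0.68), with SED 1 at the far right.

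Many other probe sets followed the same pattern over the 12 arrays, SED 1 included. Of all tested probe sets, 7.09% had a correlation with Hspb7 (brighter) beyond 0.8 in size, and 4.41% with Hspb8 (brighter). The share was 1.68% for Hspb6, 0.66% for Hspb1, 0.741% for Hspb2, 0.14% for Hspb3 and 0.193% for Cryab. These shares were not computed without SED 1, the array on which Hspb7 and Hspb8 (brighter) departed most from their means. How far they rest on that array is therefore not known. The central 95% of the correlations with Hspb7 lay between -0.85 and 0.78, so those of Hspb6 and Hspb8 with it were just outside that range. Hspb6 was followed most closely by Nexn, an actin-binding protein of the Z-disc, at r = 0.97 (0.97 without SED 1), and by Tspan9 at 0.96. Hspb7 was followed by Uqcrc1, a core subunit of respiratory complex III, at 0.97 (0.95 without SED 1), and by Rnf10 and Gas6 at 0.96 each. Hspb1 was nearest to the LIM-domain genes Crip2 (0.92) and Pdlim7 (0.91), Hspb8 to G3bp1, a stress granule protein, at 0.96, and Hspb2 to Ndufb7, a subunit of complex I, at 0.93. Hspb3 was nearest to Coq7, an enzyme of coenzyme Q synthesis, at 0.87, and Cryab to B9d1 at 0.91. These are the highest r of each over 12 arrays and are given without a test.

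Array measures of RNA integrity moved with part of this pattern. Over the 12 arrays the Gapdh 3′ minus 5′ difference had r = 0.87 with Hspb7 (brighter; permutation p = 0.00048, adjusted over 9 probe sets 0.00432) and rho = 0.74 (permutation p = 0.00761, adjusted 0.0342). For Hspb8 (brighter) r was -0.78 (permutation p = 0.00544, adjusted 0.0245) and rho was -0.74 (permutation p = 0.00726, adjusted 0.0342). Without SED 1 alone, r was 0.70 for Hspb7 and -0.51 for Hspb8. Without EX 1 and SED 1, the arrays farthest from the median of the measure, r was 0.59 for Hspb7 and -0.39 for Hspb8. The relation was thus weaker without those arrays. Leaving them out also narrows the range of the measure, and the reason for the weaker relation was not tested. For Hspb6 r was -0.61 (permutation p = 0.0291, adjusted 0.0874) and for Hspb2 it was 0.43 (permutation p = 0.16, adjusted 0.239), and the other members did not pass. The actin 3′ minus 5′ difference, taken without a test, had r = 0.64 with Hspb2, 0.62 with Hspb7 (brighter), -0.61 with Hspb3 and -0.60 with Hspb6. Its r was -0.51 with Cryab, -0.47 with Hspb8 (brighter), -0.37 with Hspb1 and with Hspb8 (dimmer), and 0.03 with Hspb7 (dimmer). The list mean of the cardiomyocyte markers moved by little but also went with part of the pattern. Its r over 12 arrays was 0.72 with Hspb6, 0.68 with Hspb1, 0.63 with Hspb8 (brighter), -0.67 with Hspb2 and -0.57 with Hspb7 (brighter). Without SED 1 these were 0.73, 0.68, 0.76, -0.68 and -0.69. With Hspb3 it was 0.46 and with Cryab 0.05, all without a test. The part of RNA integrity or of cardiomyocyte RNA in the opposite courses of Hspb7 and Hspb6 was not tested.

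**Figure D5:**
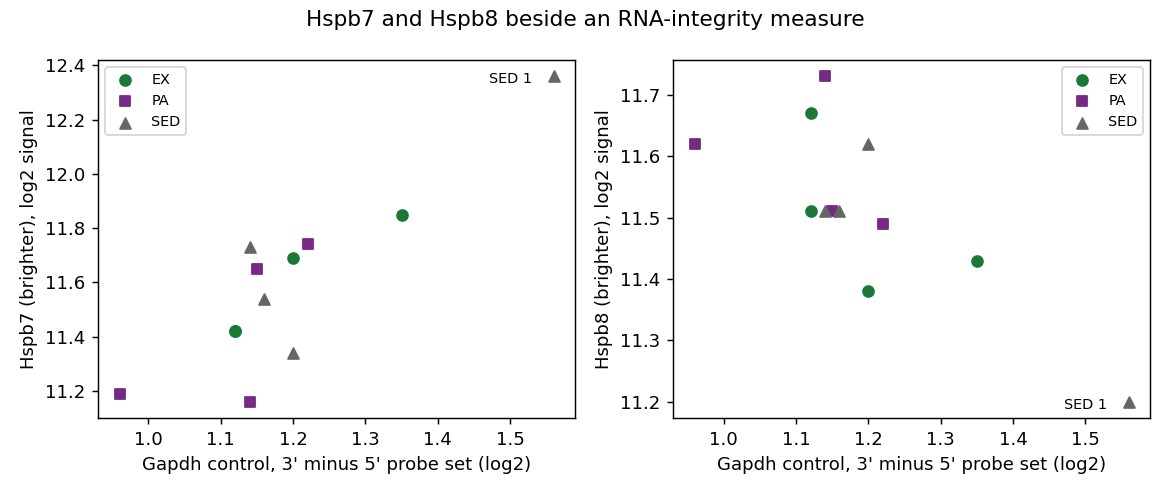
Log2 signal of Hspb7 (brighter, left) and Hspb8 (brighter, right) against the Gapdh control's 3′ minus 5′ signal, with a point for each array. SED 1 has the largest difference (1.56), the highest Hspb7 and the lowest Hspb8, and EX 3 and EX 4 coincide in the left panel.

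Because Hspb1, Hspb6 and Hspb8 varied together and Hspb7 against Hspb6 and Hspb8, the 250 bases before the RefSeq transcript start of each are shown, 5′ to 3′ on the strand of the gene in GRCr8. RefSeq sequence was at hand for 5 of the 7 members, and Hspb2 and Cryab were not among them. Capitals mark a pair of heat shock units, written GAANNTTC or TTCNNGAA, the TATA box TATAAA, and the box of the muscle transcription factor MEF2. Such a pair is not by itself a full Hsf1 element, and binding by Hsf1 was not tested. The Hspb8 window lies inside the annotated span of that gene.
Hspb1 (chr12:26432302-26432551, minus strand): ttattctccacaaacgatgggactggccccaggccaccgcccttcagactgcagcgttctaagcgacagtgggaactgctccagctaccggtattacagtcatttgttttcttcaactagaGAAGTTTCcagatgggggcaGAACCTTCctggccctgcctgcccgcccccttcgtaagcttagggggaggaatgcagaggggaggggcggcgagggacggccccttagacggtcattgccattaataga
Hspb6 (chr1:94934122-94934371, plus strand): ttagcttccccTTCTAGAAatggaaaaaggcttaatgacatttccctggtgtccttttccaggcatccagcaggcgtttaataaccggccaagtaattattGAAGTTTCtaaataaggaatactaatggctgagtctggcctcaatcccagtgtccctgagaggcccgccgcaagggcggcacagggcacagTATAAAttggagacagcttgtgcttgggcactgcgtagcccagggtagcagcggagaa
Hspb8 (chr12:45837058-45837307, plus strand): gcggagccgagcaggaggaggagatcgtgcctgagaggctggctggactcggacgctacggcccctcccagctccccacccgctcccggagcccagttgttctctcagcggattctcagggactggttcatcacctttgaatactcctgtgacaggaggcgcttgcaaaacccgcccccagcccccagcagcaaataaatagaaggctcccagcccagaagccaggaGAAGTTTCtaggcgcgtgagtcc
Hspb7 (chr5:159010509-159010758, plus strand): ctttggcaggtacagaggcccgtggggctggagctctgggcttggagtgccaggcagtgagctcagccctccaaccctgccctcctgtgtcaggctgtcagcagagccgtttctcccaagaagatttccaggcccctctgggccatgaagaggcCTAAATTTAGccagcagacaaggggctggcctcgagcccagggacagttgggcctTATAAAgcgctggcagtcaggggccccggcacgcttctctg

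Both strands were searched. Hspb1 held GAANNTTC at positions -129 to -122 and -109 to -102 from the transcript start. Hspb6 held TTCNNGAA at -239 to -232 and GAANNTTC at -149 to -142, and Hspb8 held GAANNTTC at -23 to -16. Either form was present in 13.5% of the 33469 rat promoters of the same length. The windows of Hspb7 and Hspb3 had neither form. Each held a MEF2 box, at -96 to -87 in Hspb7 and at -51 to -42 in Hspb3, where it overlapped the TATA box. Hspb3 did not run closely with Hspb7 (brighter), at r = -0.37. A MEF2 box was present in 0.523% of all promoters and TATAAA in 12.9%. TATAAA stood at -58 to -53 in Hspb6 and at -41 to -36 in Hspb7. The CArG box of the factor Srf, present in 1.5% of promoters, was not found in these 5 windows. These matches describe the letters only.

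Genes that work with the small heat shock proteins gave no call either. Each gene was represented by its brightest tested probe set, and 0 of the genes on the 4 lists tested passed limma's adjusted threshold in any comparison, as did 0 of the 10244 genes tested. At an unadjusted p under 0.05, limma placed 12.9% of all genes in EX against SED, 12.5% in PA against SED and 2.53% in EX against PA. Hspb9, Cryaa and Odf1, family members of testis and lens, were below the filter. Partners of chaperone-assisted autophagy had 3 of 10 tested genes higher in EX than in SED and 7 lower, with a median of -0.06, where 57% of all genes were higher. At the unadjusted threshold 1 passed in each comparison with SED. The corresponding counts in PA against SED were also 3 higher and 7 lower, but without SED 1 they were 6 higher and 4 lower. Bag3, the partner of Hspb8, averaged 10.98 ± 0.08 in EX, 11.06 ± 0.05 in PA and 10.995 ± 0.06 in SED (SD, n = 4 each). Its interval in EX against SED was -0.18 to 0.16. Vps18, which acts in the fusion of autophagosomes with lysosomes, had 5.74 to 6.27 in EX, 6.15 to 6.31 in PA and 6.43 to 6.66 in SED. EX and PA lay below SED without overlap, at limma adjusted p of 0.144 and 0.273. Vps18 was named for its small p within its list. Of all tested probe sets, 7.89% had no overlap in EX against SED and 8.39% in PA against SED. The same SED arrays serve in both comparisons.

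Regulators and kinases had 8 of 15 tested genes higher in EX than in SED and 7 lower, and 10 higher and 5 lower in PA, with 3 at the unadjusted threshold in each. Prkd1, protein kinase D1, which phosphorylates Hspb1, had 5.80 to 6.17 in EX, 5.92 to 6.08 in PA and 6.27 to 6.64 in SED. EX and PA lay below SED without overlap, where 7.89% and 8.39% of all tested probe sets had no overlap in these comparisons. The differences from SED were -0.38 ± 0.11 in EX and -0.40 ± 0.11 in PA (SE; limma adjusted p = 0.152 and 0.187). Prkd1 too was named for its small p, and both differences use the same SED arrays. Mapkapk2, the main kinase of Hspb1, differed by 0.32 ± 0.12 in EX against SED (SE; limma adjusted p = 0.251). Hsf1 differed by -0.07 ± 0.13 and 0.06 ± 0.13 from SED in EX and PA. Hsbp1, an inhibitor of Hsf1, differed by 0.35 ± 0.12 in PA against SED (limma adjusted p = 0.231), with PA at 10.52 to 10.78 and SED at 10.18 to 10.46.

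Clients in the cytoskeleton and sarcomere had 7 of 13 tested genes higher in EX than in SED and 6 lower, and the same counts in PA against SED. Without SED 1 they were 5 higher and 8 lower in EX, and 9 higher and 4 lower in PA. At the unadjusted threshold 1 passed in EX against SED and 0 in PA against SED. Des, the intermediate filament protein desmin that Cryab protects, had 11.07 to 11.26 in EX, 11.20 to 11.29 in PA and 11.27 to 11.46 in SED. EX lay below SED without overlap, by 0.01 at the closest arrays, and the difference was -0.18 ± 0.08 (SE; limma adjusted p = 0.312). Des had a small p within its list, and 7.89% of all tested probe sets had no overlap in this comparison. Flnc, filamin C, a client of Hspb7 and of the Hspb8 and Bag3 complex, differed by -0.12 ± 0.09 in EX against SED. Cryab itself differed by -0.02 in the same comparison.

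Other heat-inducible chaperones, most of them ATP-dependent or their helpers, had 12 of 14 tested genes higher in EX than in SED and 12 of 14 higher in PA than in SED, with medians of 0.11 and 0.09. Over all genes 57% and 59.9% were higher, with medians of 0.03 and 0.05. At the unadjusted threshold 1 passed in each. Both comparisons share the SED arrays. Without SED 1 the counts were 10 and 12 of 14, with medians of 0.10 and 0.08. Cacybp differed from SED by 0.30 ± 0.12 in EX and 0.28 ± 0.12 in PA (SE; limma adjusted p = 0.250 and 0.290). Hspa1a, the inducible Hsp70, had 7.14 to 7.82 in EX, 7.25 to 7.64 in PA and 7.04 to 7.60 in SED, with overlap between all groups.

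Cells other than cardiomyocytes also make some of these proteins, Hspb1 and Hspb6 among them in smooth muscle. The list mean of 7 tested smooth muscle and pericyte markers lay between -0.11 and 0.17 in EX, -0.09 and 0.03 in PA, and -0.16 and 0.17 in SED around its mean over all arrays. Endothelial markers (7 tested) lay between -0.12 and 0.01 in EX, -0.03 and 0.10 in PA, and -0.10 and 0.13 in SED. Leukocyte markers (10 tested) lay between -0.18 and -0.06 in EX, -0.12 and 0.20 in PA, and -0.36 and 0.68 in SED. Of the 10, 9 had a lower mean in EX than in SED, where 57% of all genes were higher. At an unadjusted limma p under 0.05, 3 of them passed, where 12.9% of all genes did, and 0 after adjustment. Without SED 1 all 10 were lower in EX, with a median of -0.40, where 53.5% of all genes were higher. In PA 5 were lower than in SED, and 8 without SED 1, where 59.9% and 59.1% of all genes were higher. SED 3 was the highest array for these markers, and there the dimmer Hspb7 probe set had its highest value of the 12 arrays (8.36) and Hspb3 its lowest (8.62, shared with EX 2). The brighter Hspb7 probe set (11.73) and Hspb1 (9.51) lay inside the range of the other SED arrays. SED 3 was also the highest array for the blood cell markers (1.31) and the adipocyte markers (0.43). Over the 12 arrays the leukocyte list mean had r = 0.58 with the dimmer Hspb7 set and -0.16 with Hspb3. For the adipocyte list mean these were 0.75 and -0.31, and for the blood cell list mean 0.37 and 0.10, all without a test. The part of these cells in the members' values was not tested.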

How the data were processed

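The authors deposited 1 table of log2 values for 31099 probe sets on 12 arrays, made from 6 µg of total RNA per array, per the labels' protocols. MAS5 and RMA are named in the submitters' processing notes without a role, so background correction and exact scale remain unknown, and the log2 values were used as deposited. The 57 control rows were left out. Probe sets in the upper 60% by mean (at least 4.94) entered a limma fit (3.58.1, R 4.3.3) of 3 group means over 12 arrays (9 residual degrees of freedom), two-sided, Benjamini-Hochberg adjusted over 18626 probe sets, threshold 0.05. Intervals are 95%. The steps were tested on simulated data. Arrays were grouped by title. Members and lists were chosen with earlier results of these data known. The rule for named genes covered all members, up to 4 genes per list with the smallest p, Hspa1a, Hspa8, Bag3 and Hsf1, and the 3 genes most correlated with each member. Hspa8 had no probe set with a single symbol. Lists for fibroblasts (8 tested), atrium (7), blood (4), skeletal muscle (2) and adipocytes (2) gave 0 calls after adjustment. The atrial list mean varied widely, from -0.56 to 0.73 in EX, -0.13 to 0.11 in PA and -0.25 to 0.15 in SED. At an unadjusted limma p under 0.05, 2 atrial genes passed in EX against SED, 1 in PA against SED and 2 in EX against PA. The shares of all genes were 12.9%, 12.5% and 2.53%. Alternatives were quantile normalization, median centring, centring on cardiomyocyte markers, other filters, a trended robust variance, array weights, fits of the compared groups, a replicate block, an offset of 32 and leaving out each array. The list counts without SED 1 and the correlations without SED 1 or with group means removed were chosen after seeing the data. Correlations and figures used Python 3.11.15 with numpy 2.4.6 and matplotlib 3.10.9.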

Additional observations from a re-analysis of the deposited data

Results flagged for a closer look

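In 2 of 27 groups of 4 arrays an end value lay far from the others of its group, where chance gives about 1 in 20 groups. PA 3 read 8.06 for the dimmer Hspb8 probe set, where the other PA arrays read 7.84 to 7.87. EX 1 read 12.73 for Cryab, where the other EX arrays read 12.79 to 12.80.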

How the results depend on the processing

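No probe set of the 7 genes passed the adjusted threshold under any alternative run. Over all probe sets the count of calls, 0 in each comparison, was 8 in EX against SED, 1 in PA against SED and 1 in EX against PA with array weights. With each array left out in turn it ranged from 0 to 2 in EX against SED, with 2 without SED 1 and 1 without EX 2, and was 0 in the other comparisons. The cause was not tested. The sign of a few differences near 0 turned. For Cryab, EX minus SED was 0.013 with quantile normalization and PA minus SED was -0.005 with array medians centred. For Hspb7 (dimmer), EX minus PA was -0.0075 with medians centred and -0.025 with array weights. Leaving out single arrays also turned signs, with differences from -0.0358 to 0.000833 for Cryab in EX against SED, -0.00833 to 0.0283 for Cryab in PA against SED, -0.005 to 0.118 for Hspb2 in EX against PA, -0.105 to 0.0183 for Hspb2 in EX against SED, -0.0742 to 0.0292 for Hspb6 in EX against SED, -0.282 to 0.0583 for Hspb7 (brighter) in EX against SED, -0.0983 to 0.0883 for Hspb7 (dimmer) in EX against PA, -0.155 to 0.0883 for Hspb7 (dimmer) in EX against SED, -0.158 to 0.0858 for Hspb7 (dimmer) in PA against SED, and -0.0492 to 0.0908 for Hspb8 (brighter) in EX against SED. The arrays' replicate numbers did not pair them: deviations of same-numbered arrays correlated at -0.21 to 0.13, and 2 of 12 arrays correlated best with their own number. With the replicate number as a block, 0 probe sets passed in each comparison, and the dimmer Hspb8 probe set differed by 0.41 in EX against SED (limma adjusted p = 0.348). With values centred on the cardiomyocyte markers that difference was 0.42, and with array weights 0.18. Only 4 arrays per group limit the precision.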
